A study of Mus musculus with 6 samples.

Results

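The genes described here encode the machinery of homologous recombination, the Fanconi anaemia pathway and the damage checkpoint. They are 41 genes chosen by name, out of 20145 genes that could be matched to a probe of the array. A matched probe was found for 40 of them, all but Rad51c, and 37 could be tested. The other three, Brca1, Chek1 and Uimc1, had only probes that were not well above background on enough arrays. RNA came from primary mammary epithelial cells of mice null for Plk2 (Plk2 -/-), which lack a polo-like serine/threonine kinase, and of mice wild type for it (Plk2 +/+), with 3 samples in each group, each on its own 1-colour Agilent array. All animals were female, 8 weeks old and of 129sv/C57Bl6 strain, and the cells were obtained by dissociating the mammary glands. The labels give neither the deleted stretch of Plk2 nor whether samples of a group came from separate animals, so p-values measure the spread between these samples, which may be technical.

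All levels below are log2 of the scanner's processed signal relative to the 75th percentile of the same array, so that 0 is the brightness of that percentile. Levels of single genes are compared within a probe only. Sums over a list of markers add linear levels of different probes, and the brightest probes weigh most in them. Between 52.8% and 56.2% of gene spots were well above background on the null arrays and between 51.8% and 53.8% on the wild-type arrays. All arrays lay on 1 slide, with every null array in row 2 and every wild-type array in row 1, so an effect of the row and one of genotype cannot be told apart. Plk2, seen by 1 matched probe, lay at -6.97, -7.20 and -7.00 in null samples 1, 2 and 3, against 2.18, 2.22 and 2.38 in wild-type samples 1, 2 and 3. No null array had it well above background, and Plk2 null cells held at least 152-fold less of it (adjusted p = 3.62e-06, limma). All 10 luminal and all 8 basal epithelial markers were tested, with linear levels, in units of the array's 75th percentile, that summed to 1849 to 2449 in null and 2000 to 2092 in wild-type samples for the luminal list, and of 486 to 607 in null and 235 to 436 in wild-type samples for the basal list.

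As background, homologous recombination repairs a broken chromosome by copying an intact sister. The break ends are resected to single strands, the mediators BRCA2 and PALB2 prepare them for strand exchange with the help of the BCDX2 and CX3 complexes, and RAD54 motors and helicases drive and then dissolve the exchange. The Fanconi pathway clears crosslinks between DNA strands: a core complex with ubiquitin ligase activity marks the FANCI-FANCD2 pair, which calls in nucleases and the recombination proteins. The kinases ATM and ATR sense breaks and stalled replication and signal through CHK2 and CHK1. Recombination is used mainly in S and G2 phase, when a sister is present, and inherited loss of BRCA1, BRCA2 or PALB2 function in humans predisposes to breast cancer.

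Most of these genes were brighter in Plk2 null cells, but no single gene passed the adjusted threshold. Of the 37 tested genes, 36 had a positive difference (null minus wild type) and 1, Mdc1, a negative one. Of all 24613 tested entries, which are 14418 genes and 10195 probes without a matched gene, 52.9% were positive. The sign held in every alternative setting for 33 of the 37 genes. It turned in some for Mdc1, Xrcc2, Fancc and Trp53bp1, which lay nearest to 0. The median difference was 0.84 on the log2 scale, against 0.03 over all entries, and it was 0.84 too with the genes that have only a bound set at that bound. None of the 37 had an adjusted p under 0.05 (limma), a threshold that 0.565% of all entries passed. At an unadjusted p under 0.05 (limma), 25 were higher and 0 lower in null cells, against 13.5% higher and 9.53% lower among all entries. The null arrays all lay above the wild-type arrays for 27 of the 37, against 19.6% of all entries, and all below for 0, against 12% of all entries. Differences of over 1 were seen for 14 genes, between 0.5 and 1 for 10, and under 0.5 in size for 13. The sizes depended on the background correction: with normexp, a model-based correction of the median signals, the median over the 37 genes was 0.46, and with the authors' deposited normalized values it was 0.41. Both are given below as normexp and deposited values for the genes whose fold they moved by more than 1.5 times.

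Some of these genes entered the test mainly through their null arrays. Brip1 and Fancd2 were not well above background on any wild-type array, and Palb2 and Dna2 were so on 1 of the 3. The other 33 were well above background on all 6 arrays. Among those 33, 21 were higher at an unadjusted p under 0.05 (limma) and 24 had null arrays all above wild type, against 13.7% and 20.7% of the 21539 entries measured on all 6 arrays. None of the 33 was lower at that unadjusted p, against 9.08% of those entries, and 32 were positive, against 53.6%. The median of the 33 was 0.79.

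**Figure D1:**
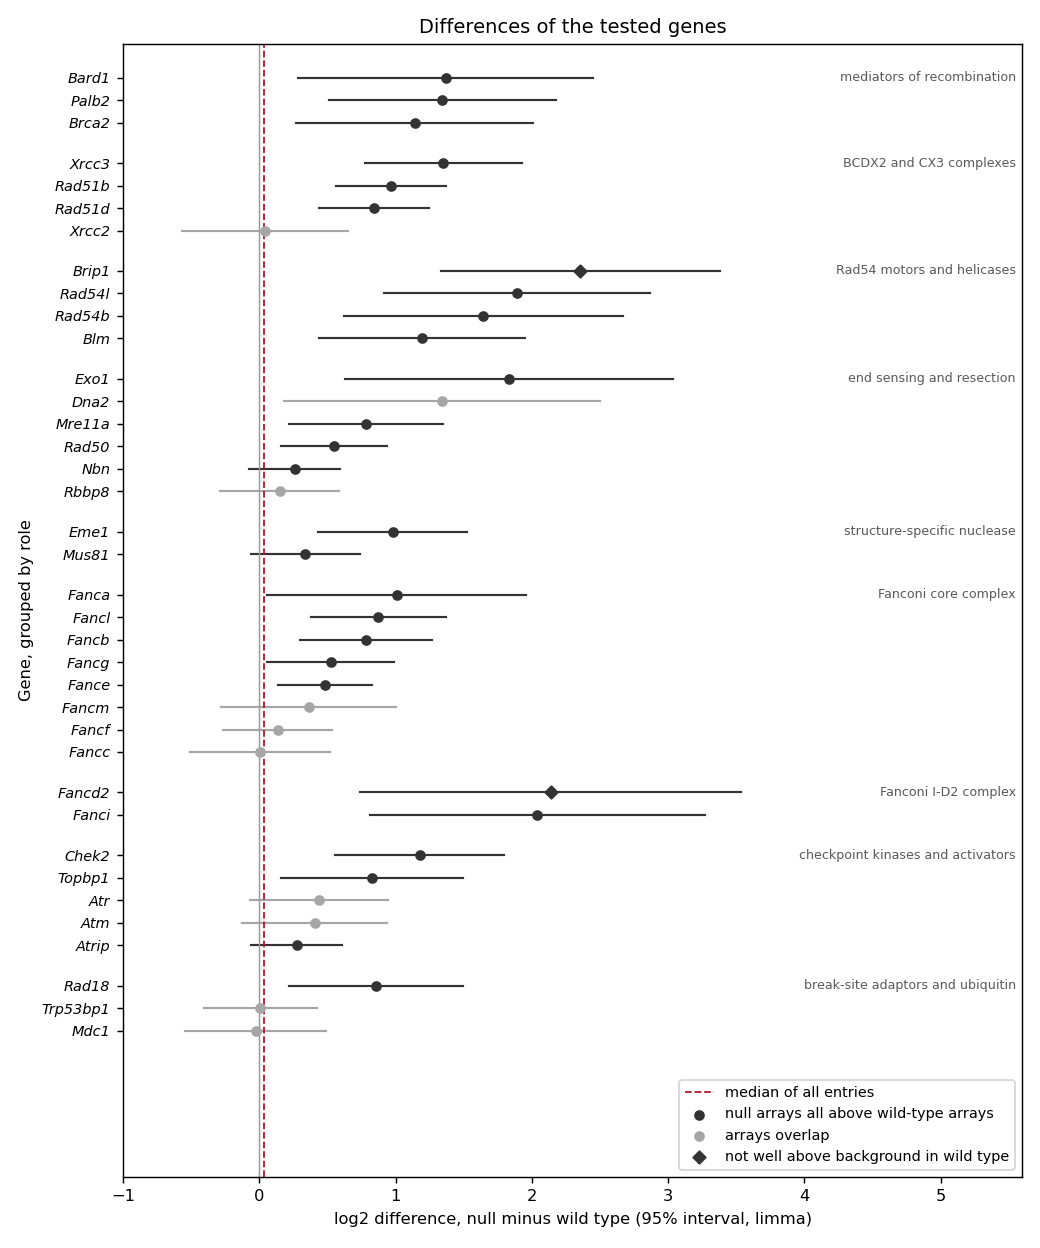
Each point is the log2 difference, null minus wild type, of 1 tested gene, with its 95% interval from limma; genes are grouped by role. Dark points mark the 27 genes whose null arrays all lay above the wild-type arrays, grey points the 10 whose arrays overlapped, diamonds the 2 genes that no wild-type array had well above background, and the dashed line the median of all entries at 0.03.

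**Figure D2:**
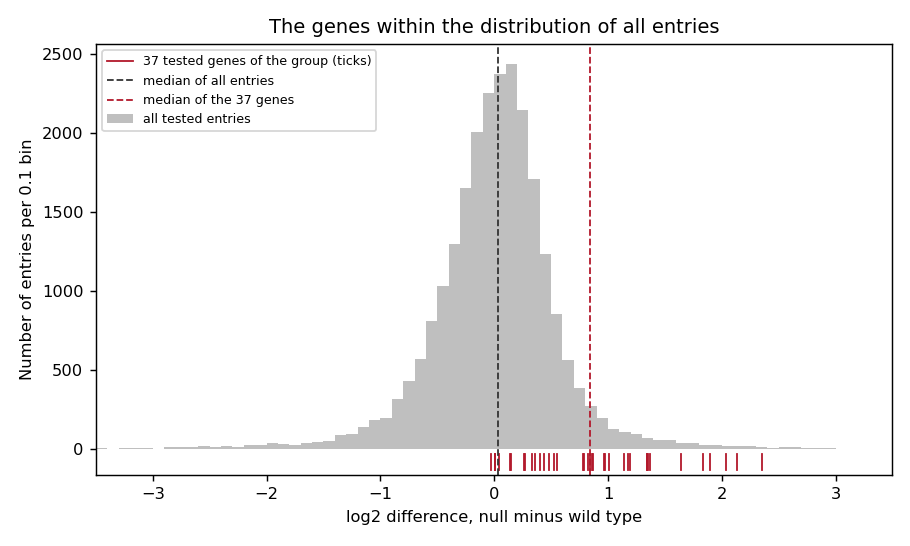
The grey bars count all 24613 tested entries in bins of 0.1 of the log2 difference, null minus wild type, and the red ticks under them mark the 37 tested genes of recombination, the Fanconi pathway and the checkpoint. All but 1 of the ticks lie above 0, around a median of 0.84 (red dashed line), while the median of all entries is 0.03 (black dashed line).

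The 3 null samples did not carry these differences equally. Relative to the wild-type mean, the median of the 37 genes was 0.59, 1.22 and 0.58 in null samples 1, 2 and 3, and between -0.05 and 0.09 in the wild-type samples. Null sample 2 was the brightest null array for 34 of the 37 genes (91.9%), which was so for 32.5% of all entries. Without null sample 2 the median was 0.56. At an unadjusted p under 0.05 (limma), 23 of the 37 were still higher, against 9.43% of all entries. Markers of dividing cells were likewise brightest in null sample 2. Of 20 listed cell division markers 16 were tested, and all 16 were higher in null cells at an unadjusted p under 0.05 (limma; 0 after adjustment), with a median of 2.14 that lay at 1.59, 3.25 and 1.66 in null samples 1, 2 and 3. Their linear levels summed to between 45.8 and 148 in null and between 12.6 and 20.1 in wild-type samples. Null sample 2 was the brightest null array for all 16, and for 19 of the 20 tested S phase markers, which had a median of 1.15, 18 of them higher at an unadjusted p under 0.05 and 1, Mcm3, past the adjusted threshold (limma).

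Lymphocyte markers were dimmer in the same null samples. All 11 tested of 13 listed were lower at an unadjusted p under 0.05 (limma; 0 after adjustment), with a median of -2.49 and linear levels that summed to 5.98 to 12.9 in null against 26.0 to 45.8 in wild-type samples. All 11 were well above background on at least 2 null arrays and on all wild-type arrays. Medians of the other cell type lists were -0.45 for fibroblasts, -0.44 for endothelium, -0.52 for macrophages and 0.24 for adipocytes. They were 0.67 for basal and -0.09 for luminal epithelium. At an unadjusted p under 0.05 (limma; 0 after adjustment), 5 of 8 fibroblast, 2 of 7 macrophage and 1 of 10 luminal markers were lower. At the same p, 3 of 8 basal markers and 1 of 7 macrophage markers were higher. No endothelial or adipocyte marker passed it. Over all entries 13.5% were higher and 9.53% lower at that p. The part that dividing cells or lymphocytes have in the recombination and Fanconi values was not tested. In RNA from a bulk sample, fewer cells of a type and less RNA per cell cannot be told apart.

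**Figure D3:**
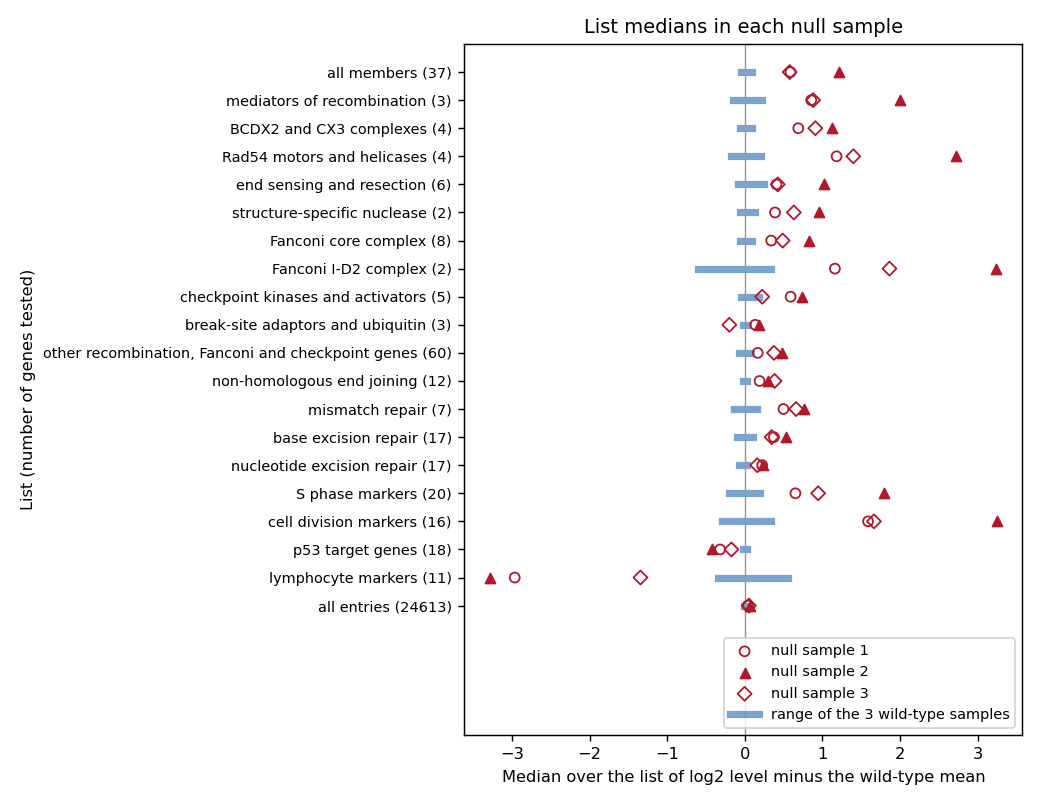
Each symbol is the median over 1 list of the log2 level in 1 null sample minus the wild-type mean, and each bar spans the same value over the 3 wild-type samples; the number of tested genes is in brackets. Null sample 2, the filled triangle, lies at 1.22 for all 37 genes together and at 3.25 for the cell division markers, above null samples 1 and 3, while the lymphocyte markers lie below 0 in all 3 null samples.

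The promoters of 4 genes are shown so that their letters can be set beside their values: Chek2, Brca2 and Xrcc3 had null arrays all above wild type, and Mdc1 had the lowest difference of the 37. Windows of 250 bases before to 50 after the start were taken from RefSeq on GRCm38.p6, where 33 of the 41 genes had one. The 4 were picked by hand and do not stand for the others, since 7 of those 33 genes had an E2F word. They were searched on both strands for the E2F words TTTCCCGC, TTTCGCGC, TTTGCCGC and TTTGGCGC, for the CCAAT box and for TTTGAA, the core of the element of genes of late cell division. Capitals mark the E2F word in Chek2, Brca2 and Mdc1 and the CCAAT boxes in Xrcc3, read in the direction of the gene.
Chek2 (GRCm38.p6, chr5:110839733-110840032, plus strand): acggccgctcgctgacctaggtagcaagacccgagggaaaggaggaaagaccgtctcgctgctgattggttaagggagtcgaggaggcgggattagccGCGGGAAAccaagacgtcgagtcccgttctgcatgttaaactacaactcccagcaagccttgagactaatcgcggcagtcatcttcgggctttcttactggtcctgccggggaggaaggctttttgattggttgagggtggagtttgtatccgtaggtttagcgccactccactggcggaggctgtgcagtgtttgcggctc
Brca2 (GRCm38.p6, chr5:150522371-150522670, plus strand): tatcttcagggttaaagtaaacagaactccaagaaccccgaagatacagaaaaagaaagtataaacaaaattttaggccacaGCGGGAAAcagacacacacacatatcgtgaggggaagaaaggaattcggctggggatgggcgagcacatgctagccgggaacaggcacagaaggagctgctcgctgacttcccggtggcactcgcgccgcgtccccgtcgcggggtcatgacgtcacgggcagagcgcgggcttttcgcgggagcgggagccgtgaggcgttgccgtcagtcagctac
Xrcc3 (GRCm38.p6, chr12:111813830-111814129, minus strand): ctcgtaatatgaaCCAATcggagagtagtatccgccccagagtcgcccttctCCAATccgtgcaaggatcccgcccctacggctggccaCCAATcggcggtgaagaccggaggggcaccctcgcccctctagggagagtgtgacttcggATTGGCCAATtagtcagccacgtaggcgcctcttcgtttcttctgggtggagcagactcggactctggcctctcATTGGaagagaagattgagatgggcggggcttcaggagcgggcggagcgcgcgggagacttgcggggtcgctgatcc
Mdc1 (GRCm38.p6, chr17:35841248-35841547, plus strand): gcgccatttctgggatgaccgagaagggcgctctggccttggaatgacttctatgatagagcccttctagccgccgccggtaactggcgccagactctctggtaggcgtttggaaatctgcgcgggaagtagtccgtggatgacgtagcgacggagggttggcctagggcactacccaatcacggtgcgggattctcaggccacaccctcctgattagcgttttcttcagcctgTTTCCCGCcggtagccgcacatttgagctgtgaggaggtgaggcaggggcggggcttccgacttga
The E2F word begins 152 bases before the start in Chek2, 168 before it in Brca2 and 16 before it in Mdc1, and it reads on the opposite strand in the first pair and on the gene's own strand in Mdc1. None of the marked words overlaps a match of another motif. The window of Xrcc3 holds 6 CCAAT boxes, 4 on the gene's strand and 2 on the other, the most among the 33 genes. Of the 32851 windows in the table, 0.079% hold at least that many.

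An E2F word was present in the window of 7 of the 33 genes (21.2%), against 2.6% of the 27025 genes in the table. The 7 were Bard1, Brca2, Chek2, Fancg, Mdc1, Rad51c and Topbp1. TTTGAA was found in 12.1% of the 33 genes against 20.2% of all genes, and CCAAT in 57.6% against 41.1%. Of the tested genes with an E2F word, Bard1, Chek2, Brca2, Topbp1 and Fancg differed by 1.37, 1.18, 1.14, 0.83 and 0.52, and Mdc1 by -0.03. Among genes with none in their windows, Fancc and Trp53bp1 differed by 0.00 and 0.01, and Rad51b, Rad54l and Fanci by 0.97, 1.89 and 2.04. Whether the word goes with the difference was not tested. A match is a stretch of letters in this window and not evidence of binding.

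The 3 tested mediators of recombination had null arrays all above wild type, which was so for 19.6% of all entries. Their differences were 1.37 for Bard1 (SE 0.45), 1.34 for Palb2 (SE 0.35) and 1.14 for Brca2 (SE 0.36). Their adjusted p-values (limma) were 0.150, 0.101 and 0.141 in that order. Palb2, which only 1 wild-type array measured clear of background, was at 0.14 with normexp and 0.21 with the deposited values. Without null sample 2, Bard1 was at 0.83 and Brca2 at 0.71. BRCA2 acts at resected ends to start strand exchange. Brca2 had levels of -0.97, 0.17 and -1.26 in null samples 1, 2 and 3, against -1.93, -1.81 and -1.75 in wild-type samples 1, 2 and 3. The null arrays all lay above the wild-type arrays and were far more spread, at a mean of -0.69 ± 0.76 against -1.83 ± 0.09 (SD, n = 3 each). Bard1, which encodes the partner of BRCA1 in a ubiquitin ligase, also had null arrays all above wild type, and its level in null sample 2, at 1.22, stood well above -0.45 and -0.35 in null samples 1 and 3. A second Bard1 probe gave 0.64 (SE 0.44). Palb2, which bridges BRCA1 and BRCA2, lay between -4.29 and -3.34 in null and between -5.68 and -4.66 in wild-type samples. Brca1 itself lay at -7.01, -6.37 and -5.99 in null cells and at -6.74, -6.70 and -7.07 in wild-type samples, not well above background on any of the 6 arrays. Its probe therefore says nothing of how the 2 groups compare.

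Among the subunit genes of the BCDX2 and CX3 complexes, which assist strand exchange, 3 of the 4 measured genes were near each other and high, and the fourth, Xrcc2, was not. Rad51b had the smallest p of all 37 genes. Its levels were -1.07, -0.67 and -0.93 in null samples 1, 2 and 3, against -1.74, -1.81 and -2.02 in wild-type samples 1, 2 and 3. The groups were well apart and both tight, with a difference of 0.97 (SE 0.17, 1.95-fold; limma adjusted p = 0.0582). Xrcc3, whose promoter is shown above, lay at -0.62, 0.18 and -0.44 in null and at -1.70, -1.80 and -1.44 in wild-type samples. Its lowest null array was above its highest wild-type array, with a difference of 1.35 (SE 0.24, 2.55-fold; limma adjusted p = 0.0612). Rad51d lay at -0.49, -0.04 and -0.19 in null and at -1.15, -0.96 and -1.14 in wild-type samples. The groups did not overlap and differed by 0.84 (SE 0.17, 1.79-fold; limma adjusted p = 0.0731), but a second Rad51d probe, also well above background on all 6 arrays, gave -0.12 (SE 0.31). Xrcc2 differed by 0.04 with a 95% interval of -0.57 to 0.65, its null arrays at -3.20 to -2.40 and its wild-type arrays at -3.20 to -2.72.

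**Figure D4:**
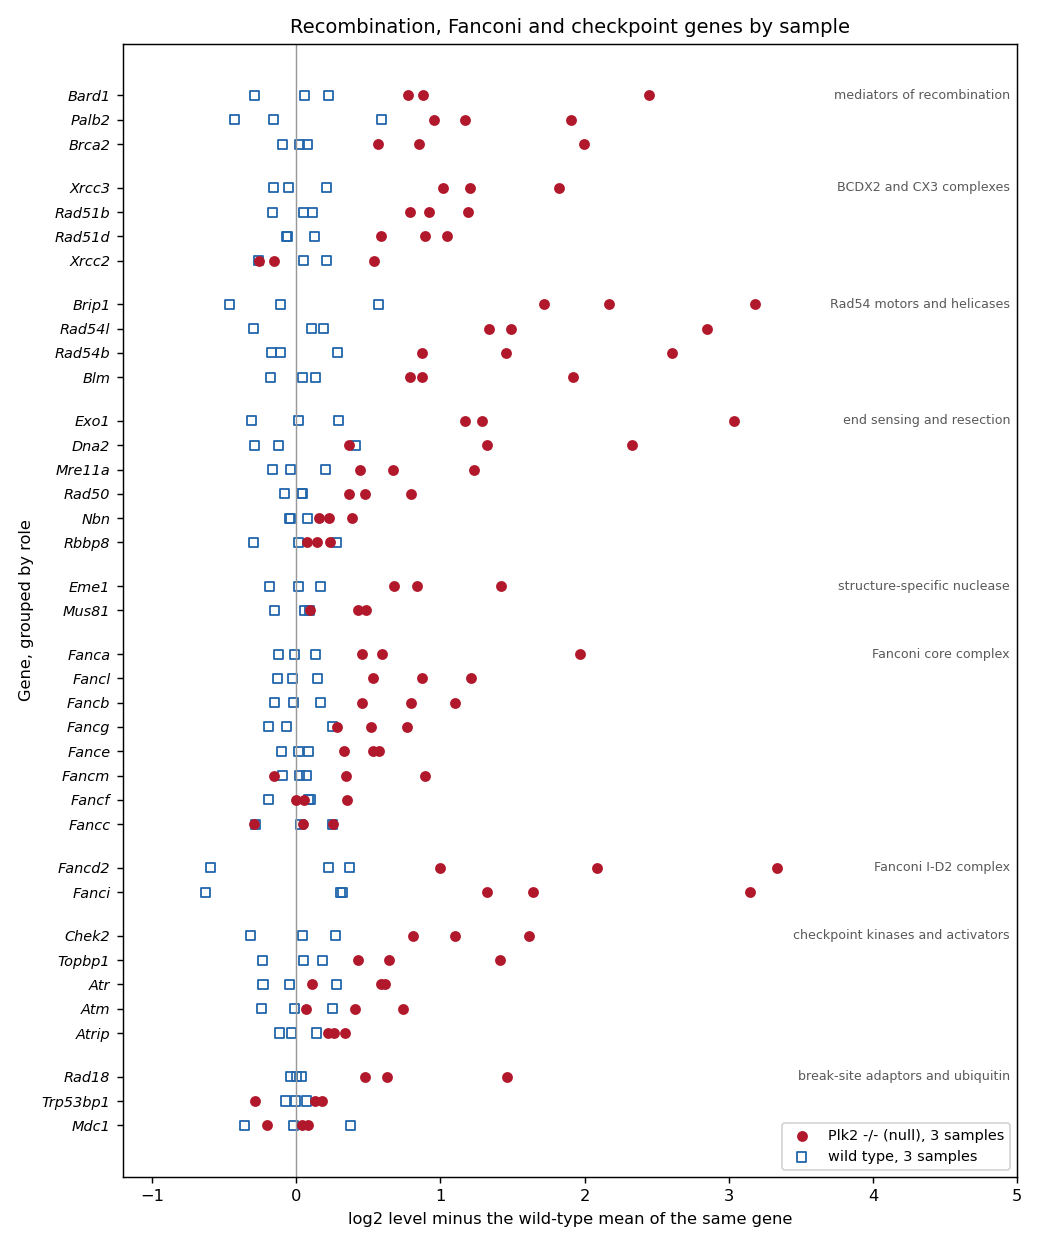
Each row is 1 of the 37 tested genes, grouped by role, with the log2 level in each of the 3 null samples (filled circles) and the 3 wild-type samples (open squares) minus the wild-type mean of that gene. In Rad51b and Xrcc3 the groups stand apart, in Bard1, Brca2, Rad54l and Fanci 1 null sample lies far above the other null samples, and in Trp53bp1 and Mdc1 the groups overlap.

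The RAD54 motors and the helicases had a median difference of 1.70 with Brip1 at its bound. All 4 had null arrays above wild type, against 19.6% of all entries, but Brip1 entered the test through its null arrays alone. Rad54l, a motor that acts on the donor duplex during strand exchange, lay at -1.54, -0.19 and -1.70 in null samples 1, 2 and 3, against -2.93, -3.33 and -2.84 in wild-type samples 1, 2 and 3. The difference was 1.89 (SE 0.41, 3.71-fold; limma adjusted p = 0.0812), with null sample 2 well above the other null samples, and 0.93 with normexp and 1.01 with the deposited values. Brip1, the helicase that binds BRCA1 and is also known as FANCJ, lay at -3.53, -2.07 and -3.08 in null and at -4.68, -5.36 and -5.71 in wild-type samples. It was well above background on all 3 null arrays and on none of the wild-type arrays, so that by the processed signal null cells had at least 3.37-fold more of it (limma adjusted p = 0.0634 for the measured values). That bound holds for the processed signal alone: the difference was 0.55 on the log2 scale with normexp and 0.64 with the deposited values. Rad54b, a relative of Rad54l, differed by 1.65 (SE 0.43; adjusted p = 0.102; 0.63 with normexp and 0.71 with the deposited values) and Blm, which dissolves joined molecules and restrains crossing over, by 1.19 (SE 0.32; adjusted p = 0.105).

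Of the 6 genes of end sensing and resection, 4 had null arrays all above wild type, against 19.6% of all entries. Exo1, a long-range resection nuclease that also serves mismatch repair, had levels of -0.59, 1.28 and -0.47 in null samples 1, 2 and 3, against -1.74, -2.07 and -1.47 in wild-type samples 1, 2 and 3. The groups did not overlap, at a difference of 1.83 (SE 0.50; limma adjusted p = 0.111), and the null spread was wide. Dna2, the other long-range nuclease, differed by 1.34 (SE 0.49; adjusted p = 0.172), with 1 null array, at -4.27, just below the highest wild-type array at -4.23. Only 1 wild-type array measured it clear of background, and it was at 0.33 with normexp and 0.40 with the deposited values. The subunits of the end-binding MRN complex differed by 0.78 (SE 0.24) for Mre11a, 0.55 (SE 0.16) for Rad50 and 0.26 (SE 0.14) for Nbn, with adjusted p-values of 0.130, 0.125 and 0.312. A second Rad50 probe gave 0.20 (SE 0.16). Rbbp8, which encodes CtIP, the starter of resection, differed by 0.15 with an interval of -0.29 to 0.59.

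Of the nuclease that cuts joined or stalled DNA, the partner Eme1 lay at -3.18, -2.45 and -3.03 in null and at -3.69, -4.05 and -3.85 in wild-type samples. The groups did not overlap, at 0.98 (SE 0.23, 1.97-fold; limma adjusted p = 0.0903), but 0.21 with normexp and 0.28 with the deposited values. The catalytic subunit Mus81 differed by 0.34 (SE 0.17; adjusted p = 0.282).

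In the Fanconi pathway Fanci had null arrays all above wild type. So did Fancd2, but it entered the test through its null arrays alone. Of the 8 genes of the core complex, 5 had null arrays all above wild type, against 19.6% of all entries. The median difference of the core complex was 0.50. Fanci lay at -1.88, -0.06 and -1.56 in null samples 1, 2 and 3, against -2.88, -3.83 and -2.90 in wild-type samples 1, 2 and 3. All null arrays were above wild type, null sample 2 the most, and the difference was 2.04 (SE 0.51, 4.11-fold; limma adjusted p = 0.0971), against 0.97 with normexp and 1.05 with the deposited values. Fancd2 lay at -4.64, -2.30 and -3.55 in null and at -5.41, -6.22 and -5.26 in wild-type samples. It was well above background on the 3 null arrays alone, and by the processed signal null cells had at least 2.23-fold more of it (limma adjusted p = 0.111 for the measured values). That bound too holds for the processed signal alone: the difference was 0.31 on the log2 scale with normexp and 0.40 with the deposited values, below that of Fancl, Fanca and Fancb in the same settings. Both genes of the pair thus showed the same order, null sample 2 above 3 above 1. That order was not particular to the pair, since Fancl and Fancb had it too. Null sample 2 was the brightest null array for 34 of the 37 genes.

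Of the core complex, Fancl, its ubiquitin ligase subunit, lay at 1.07, 1.75 and 1.41 in null and at 0.51, 0.41 and 0.69 in wild-type samples. The groups did not overlap, at 0.87 (SE 0.21, 1.83-fold; limma adjusted p = 0.0921), and a second probe gave 0.996 (SE 0.21). Fancb, an X-linked core subunit, lay at -0.69, -0.04 and -0.35 in null and at -1.29, -1.16 and -0.98 in wild-type samples, again with no overlap, and differed by 0.79 (SE 0.20, 1.72-fold; adjusted p = 0.101). The core subunit genes Fanca, Fancg and Fance differed by 1.01 (SE 0.40), 0.52 (SE 0.19) and 0.48 (SE 0.14), each with null arrays all above wild type and with adjusted p-values of 0.198, 0.179 and 0.128. Fanca was at 0.53 without null sample 2. Fance was measured by a second probe at 0.52. Fancm, the translocase that anchors the core complex to DNA, and Fancf overlapped between groups, at 0.36 (SE 0.27) and 0.14 (SE 0.17). Fancc stood apart from the ligase subunit: its levels of -1.42, -1.08 and -0.87 in null samples covered almost the same range as -1.10, -0.88 and -1.42 in wild-type samples. Its difference had a 95% interval of -0.51 to 0.52 around 0.00, and its second probe gave -0.16 (SE 0.21).

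The checkpoint kinases were uneven. Chek2, the kinase downstream of ATM, lay at -2.70, -1.90 and -2.41 in null samples 1, 2 and 3, against -3.47, -3.24 and -3.83 in wild-type samples 1, 2 and 3. The groups did not overlap, at 1.18 (SE 0.26, 2.26-fold; limma adjusted p = 0.0836), but 0.35 with normexp and 0.41 with the deposited values. Chek1, the kinase downstream of ATR, lay at -4.92, -5.22 and -5.14 in null and at -4.63, -4.54 and -4.61 in wild-type samples. It was well above background on 1 of the 3 wild-type arrays and on no null array, so it was not tested, and no fold is given. Among the 40 genes with a probe, Chek1 was the one whose null arrays all lay below the wild-type arrays. Of all tested entries, 12% had null arrays all below wild type. The Chek1 values lie at the edge of detection, so they give no direction between the groups.

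The upstream kinases overlapped between groups. Atm lay at -2.40, -2.06 and -2.73 in null and at -3.04, -2.81 and -2.55 in wild-type samples, a difference of 0.41 (SE 0.22; limma adjusted p = 0.325). A second Atm probe, well above background on 3 of the 6 arrays, gave 1.68 with an SE of 1.25. Atr lay at 1.91, 1.93 and 1.43 in null and at 1.09, 1.27 and 1.60 in wild-type samples, a difference of 0.44 (SE 0.21; adjusted p = 0.272). Null sample 3 of Atr lay below the highest wild-type array. The ATR partner Atrip differed by 0.27 (SE 0.14; adjusted p = 0.291) with no overlap, and Topbp1, which activates ATR, by 0.83 (SE 0.28; adjusted p = 0.154; 0.54 without null sample 2).

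Of the 3 tested adaptors and ubiquitin ligases that act on chromatin around a break or stalled fork, Mdc1 and Trp53bp1 lay near 0. Mdc1, which reads the histone mark laid down by ATM, lay at 0.44, 0.48 and 0.20 in null and at 0.05, 0.38 and 0.78 in wild-type samples. The groups overlapped throughout, and the difference of -0.03 had a 95% interval of -0.54 to 0.49. Trp53bp1, which encodes 53BP1, an opponent of resection, lay at 1.61, 1.65 and 1.19 in null and at 1.55, 1.47 and 1.405 in wild-type samples. Its difference of 0.01 had an interval of -0.40 to 0.42, and a second probe gave 0.14 (SE 0.21). The signs of Mdc1 and Trp53bp1 turned with the scaling, Mdc1 to 0.01 with median and 0.25 with spike-in centring and Trp53bp1 to -0.02 with quantile normalization. Rad18, a ubiquitin ligase that acts at stalled forks and breaks, differed by 0.86 (SE 0.27; limma adjusted p = 0.138), with a second probe at 0.72 and a value of 0.56 without null sample 2. Uimc1, which encodes the ubiquitin reader RAP80, did not stand well above background on the 6 arrays, at -6.34, -5.51 and -6.09 in null and -6.15, -6.71 and -5.78 in wild-type samples.

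A further 66 genes of the same pathways were listed by name, of which 60 were tested. Of the 60, 51 were positive, and the median was 0.29. At an unadjusted p under 0.05 (limma; 0 after adjustment), 20 were higher and 1 lower. Over all entries 52.9% were positive, and 13.5% were higher and 9.53% lower at that p. The smallest p-values of the list belonged to Rad51ap1, which promotes strand exchange, at 2.06 (adjusted p = 0.0738), Rpa3, a subunit of the single-strand binding complex, at 1.06 (0.0745), Zswim7 at 0.64 (0.0937), Cdc25c, a phosphatase of mitotic entry that the checkpoint restrains, at 2.62 (0.0961), and Fignl1 at 1.74 (0.0971). Cdc25c was well above background on only 2 of the 3 wild-type arrays, with wild-type levels between -4.55 and -3.80. Wee1, the kinase that opposes CDC25, was the single gene lower at an unadjusted p under 0.05, at -0.46 (SE 0.15; adjusted p = 0.142). The next lowest were Rev1, at -0.24, and Rev3l, at -0.21, both of which act in synthesis past lesions. H2afx (H2ax), which encodes the histone that ATM marks at breaks, differed by 0.998 (SE 0.26; adjusted p = 0.0984).

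Lists of the other repair routes had medians between 0.20 and 0.51. For non-homologous end joining, which ligates breaks without a template, the median of 12 genes was 0.20, and 5 were higher at an unadjusted p under 0.05 (limma), among them the Ku subunit genes Xrcc5 at 0.63 and Xrcc6 at 0.66. The 7 mismatch repair genes were all positive with a median of 0.51, 5 of them higher at an unadjusted p under 0.05, among them Msh3 at 0.78. Base excision repair had a median of 0.31 over 17 genes with 4 higher, among them the glycosylase genes Neil3 at 2.91, well above background on 1 wild-type array, and Nthl1 at 0.83. Nucleotide excision repair had a median of 0.21 over 17 genes with 6 higher, among them the TFIIH subunit genes Gtf2h2 at 0.71 and Gtf2h3 at 0.52. Over all entries 13.5% were higher at this p, a share to set these counts against. In all 4 lists no gene was lower at an unadjusted p under 0.05 and 0 passed the adjusted threshold (limma). The 18 tested target genes of p53, the transcription factor that ATM and CHK2 activate after damage, had a median of -0.27. Of the 18, 6 were lower and 0 higher at an unadjusted p under 0.05 (limma; 0 after adjustment), against 9.53% lower over all entries.

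Whether single genes passed the adjusted threshold depended on the processing. Rad51b and Xrcc3 passed it in 7 of 18 alternative settings, Brip1 in 4, Rad51d in 3, Rad54l in 2 and Fancl in 1. Brip1 entered the test through its null arrays alone, so its 4 passes lend no support, and it was not called with normexp or the deposited values and not tested where all arrays were required. Over the settings the adjusted p (limma) of Rad51b ran between 0.0329 and 0.183 and that of Xrcc3 between 0.0340 and 0.192. In the authors' deposited table, with its own normalization, 40 of the genes had a row. Rad51b (fold 1.51 higher in null, unadjusted p = 0.00481) and Rad51d (fold 1.61 higher, unadjusted p = 0.00235) passed its thresholds on p and on fold. The share of all probes that passed both was not counted, so these passes cannot be set against it. Of the 37 genes, 33 kept the sign of their difference in every setting run, the exceptions being Xrcc2, Fancc, Trp53bp1 and Mdc1.

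**Figure D5:**
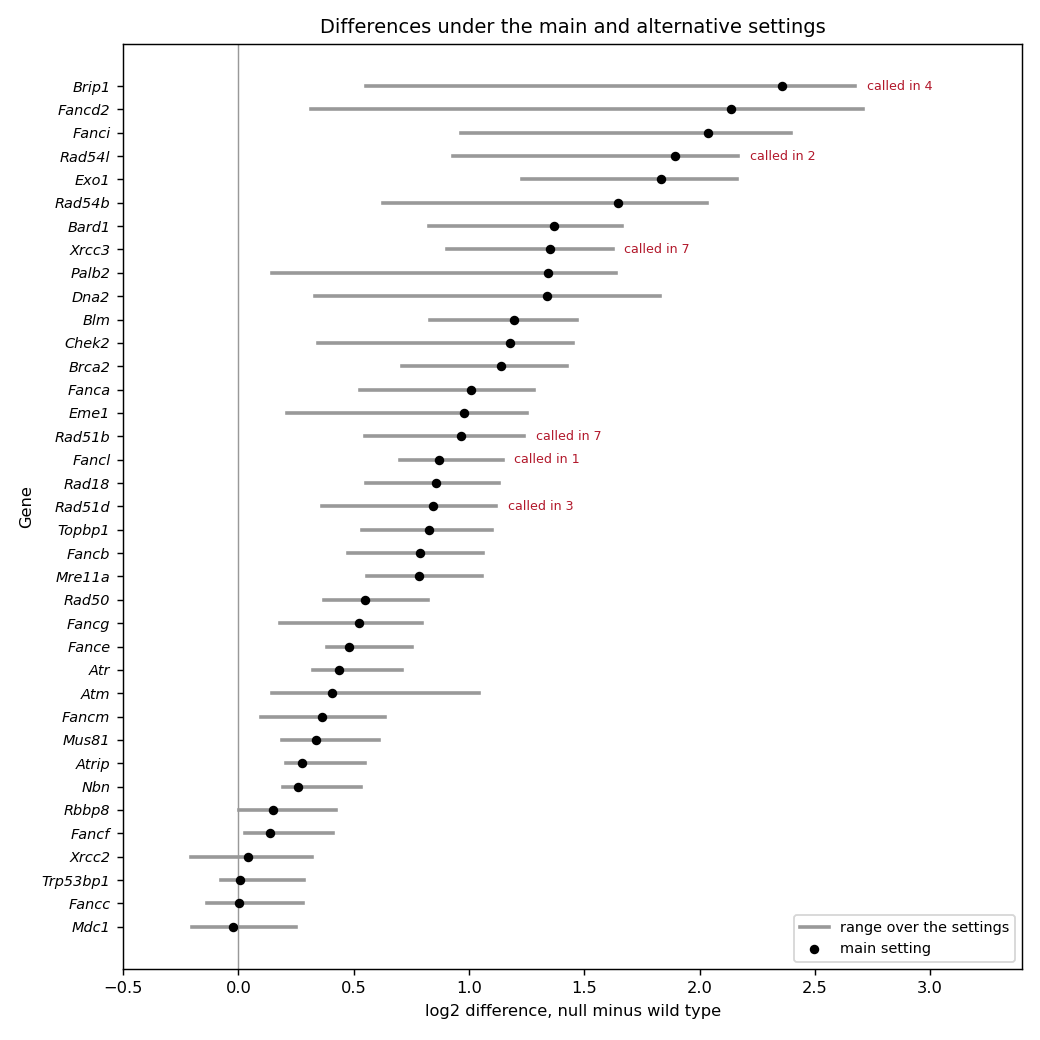
Each black point is the log2 difference of 1 gene, null minus wild type, and each grey line spans its values over the alternative settings; the words beside a gene give the number of settings in which its adjusted p was under 0.05. Rad51b and Xrcc3 passed in 7, and the spans of Xrcc2, Fancc, Trp53bp1 and Mdc1 cross 0. For Brip1 and Fancd2 the points are measured values, not bounds.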

How the data were processed

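The deposited intensities are linear processed spot signals, background-corrected by Agilent Feature Extraction 11.0.1.1, per the file headers. A deposited table of the authors adds quantile-normalized intensities, unadjusted p-values, a wild-type to null ratio and, as a score, a signed fold; no source used here says how it was made. It served as an alternative.

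Log2 signals were centred on each array's 75th percentile. Control spots and 1119 outlier spots were left out, and spots of a probe averaged. Accessions were matched to RefSeq transcripts (GRCm38.p6, names only): 26582 of 55681 probes, 20145 genes. A probe was kept if 3 or more of the 6 arrays had it well above background. The brightest kept probe stood for each matched gene, and each kept probe without a matched gene stood for itself. This left 24613 entries, 14418 genes and 10195 unmatched probes, and shares of all entries are over both. The groups were compared with lmFit and eBayes of limma 3.58.1 (R 4.3.3) with Benjamini-Hochberg adjustment over all entries. The steps were tested on simulated arrays. Noise there was independent between genes, without an excess that many genes share in the same sample. Those arrays therefore do not show what share of real differences would be called. The number of arrays limits the precision.

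Where no array of a group had a probe well above background, a bound is given: the brighter group's mean over that of, per array, either the dim probe's own value or the dimmest probe well above background, whichever is higher. A p beside it tests the measured values.

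Per-sample values are given for the 10 genes with the smallest p, the 3 with the lowest difference and a short list of central genes; for the 60 further genes, the 5 with the smallest p, the 3 lowest, H2afx and Wee1 are named; for each other repair list, the 2 with the smallest p. A few genes named by it are left out here. Exo1 and Uimc1 were added after their values were seen. The genes and lists were chosen with earlier results of these data known. Alternatives were other background correction, normalization, centring, filters, probe choice, moderation, array weights, a replicate block and each array left out.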

Additional observations from a re-analysis of the deposited data

How the results depend on the processing

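No member of the group passed an adjusted p of 0.05 (limma) with quantile normalization, without a filter on dim probes, with the mean of a gene's probes, with an equal-variance test or without any 1 array. The count passing was 4 with normexp background correction, 3 with median centring, 3 with spike-in centring, 3 with the deposited normalized values, 2 with probes well above background on all arrays, 5 with a trended robust eBayes and 4 with array weights. Over the same settings the count of all entries passing, 139 as reported, was 1232, 345, 328, 755, 379, 847 and 1190. It was 31 without the filter and 2 with the equal-variance test, and ran between 7 and 701 when 1 array was left out, the lowest without null sample 1 or wild-type sample 2 and the highest without null sample 3. Calls split into 56 higher and 83 lower as reported, 41 and 63 with quantile normalization, 179 and 166 with median centring and 209 and 119 with spike-in centring. Spike-in centring put the median of all entries at 0.31 and left the group 0.81 above it, as in the reported values. In every setting, 20 to 27 of the 37 genes, or of 33 where all arrays were required, were higher at an unadjusted p under 0.05. None was lower. Over all entries the share higher at that p ran between 6.97% without the filter and 23.7% with spike-in centring. The share lower ran between 3.62% with spike-in centring and 11.9% without null sample 3. The median of 0.84 became 0.46 with normexp correction and 0.41 with the deposited values, and lay between 0.56 (without null sample 2) and 0.97 (without null sample 1) when 1 array was left out.

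The signs that turned belonged to 4 genes. Xrcc2 was -0.0083 with normexp and -0.0124 with array weights. Fancc was -0.0516 with normexp, -0.0318 with the deposited values, -0.0771 with the mean of its probes and -0.13 with array weights. Trp53bp1 was -0.0234 with quantile normalization, and Mdc1 was 0.0119 with median and 0.25 with spike-in centring. With 1 array left out, Xrcc2 ran between -0.21 and 0.20, Fancc between -0.14 and 0.15, Trp53bp1 between -0.077 and 0.16 and Mdc1 between -0.20 and 0.16. Of 662 further values of single genes, 619 kept their direction and side of the threshold, 24 passed it and 19 turned. The cause of these changes was not tested.

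The labels give both groups the numbers 1 to 3, but same-numbered samples did not deviate together (correlations of -0.12, 0.04 and -0.02). No sample correlated best with the sample of its own number in the other group. With the number as a replicate block, 8 entries and 0 members of the group passed the adjusted threshold. At an unadjusted p under 0.05, 24 members were higher, against 9.95% of all entries. The 33 genes seen on all arrays had signal over background in both groups; for Brip1, Fancd2, Palb2, Dna2, Chek1, Brca1 and Uimc1 the background limits what can be said.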
